A study of Mus musculus with 6 samples.

Results

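RING finger genes encode ubiquitin ligases that carry a zinc-binding RING domain, and the set described here is the Rnf-numbered genes of the mouse together with Dzip3, a RING ligase gene with another name. Members were the rows whose symbol is Rnf followed by a number and at most 1 small letter, with the Polycomb ligase gene Rnf2 left out, plus Dzip3. They came to 82 of the 55401 gene rows. The 81 Rnf genes were taken by symbol, whereas Dzip3 was selected on its strong fall after treatment in these same libraries. Its log2 fold change is therefore given as a description with no test, and it enters no count below.

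Each group was 3 libraries of newly made RNA from mouse embryonic stem cells (mESCs, strain 129/Ola). In the IAA group the cells had been kept for 5 h with indole-3-acetic acid (IAA), a plant auxin, and their genotype label names degradation of the zinc finger protein ZFP207, which carries an auxin-inducible degron (AID). A degron is a tag that sends the protein to the proteasome once auxin is added. The control group had no IAA and is titled as the same ZFP207AID cells at 0 h, although its genotype label reads WT, so an untagged line cannot be told apart from the labels. Cells without the degron that also received IAA were not analysed here, so what IAA does by itself and what the loss of ZFP207 does cannot be told apart. RNA labelled with 4-thiouridine (4sU) was biotinylated and bound to streptavidin beads before sequencing, and the series asks how ZFP207 acts on U1 snRNP, the splicing particle that recognises 5′ splice sites. How many clones the line stands for is not given in the sources used here.

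A ubiquitin ligase, or E3, is the last of 3 enzyme classes in ubiquitin transfer. An E1 activates ubiquitin, an E2 carries it, and a RING ligase holds the loaded E2 and the substrate close together. In the RING-between-RING (RBR) subclass the ubiquitin first passes to a cysteine of the ligase itself. The chain that is built decides whether a substrate is degraded or serves as a signal, for example at broken DNA, at the membrane of the endoplasmic reticulum (ER) or on stalled ribosomes.

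The libraries held 14336811 to 23385133 counts in the IAA group and 17613103 to 25916628 in controls. The 8 stem cell markers, Pou5f1, Sox2 and Nanog among them, summed to 4213 to 4783 CPM (counts scaled to library size) after IAA and 3923 to 4469 CPM in controls. Markers of embryonic fibroblasts summed to 2.88 to 4.47 CPM after IAA and 2.49 to 8.94 CPM in controls, with Col3a1, Postn and Dcn at 0 in all 6 libraries. The 4 primitive endoderm markers, Gata4, Gata6, Sox7 and Sox17, summed to 6.29, 6.94 and 6.36 CPM after IAA and 4.72, 2.73 and 5.63 CPM in controls, ranges that do not overlap, with Sox17 at 0 in all 3 IAA libraries. Of these 4, 3 were tested and 0 called in either edgeR fit, and their part in the results below was not tested. Neural markers summed to 9.58 to 19.6 CPM after IAA and 13.9 to 16.8 CPM in controls, and mesoderm markers to 1.00 to 1.65 CPM after IAA and 0 to 1.03 CPM in controls. Zfp207 RNA was at 695, 1467 and 596 CPM after IAA and at 545, 1116 and 548 CPM in controls, and since a degron acts on protein these values do not check the depletion. Rnf genes took 0.430, 0.428 and 0.467% of all counts after IAA and 0.429, 0.408 and 0.448% in controls, ranges that overlap.

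Dzip3 encodes a RING ligase that in human cells ubiquitinates histone H2A and binds RNA. Its labelled RNA was at 17.5, 13.5 and 7.45 CPM in IAA replicates 1 to 3, against 83.3, 112 and 89.2 CPM in control replicates 1 to 3, all scaled with edgeR's TMM factors. Every IAA library lay below every control library. The difference was 7.37-fold (log2 fold change -2.88), and in the 3 same-numbered pairs the log2 ratio was -2.24, -3.03 and -3.54. The lowest tested Rnf gene, Rnf123, stood at -1.08. Dzip3 lies on chromosome 16 at 48924228 to 48994142 (mm10), a span of 69.9 kb. Gm22576, the only other gene annotated within that span, averaged 0 CPM after IAA and 0.177 CPM in controls. In RNA from many cells together, fewer cells making a transcript and less of it per cell cannot be told apart.

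The sequences just before an annotated transcription start are shown for Dzip3 and for 5 Rnf genes. In the fit that pairs libraries by number, Rnf123, Rnf168 and Rnf214 were lower after IAA and Rnf24 and Rnf19b were higher. The called genes Rnf170, Rnf125, Rnf138 and Rnf139 have no promoter entry. Each run is the 120 bases before the outermost start in the promoter set, 5′ to 3′ on the gene's strand, from RefSeq on GRCm38.p6. For Rnf123 that start lies inside the gene's annotated interval, which reaches 108080352, so its run is not at the interval's 5′ end. Capitals mark any of 6 motifs found on either strand, which were the TATA box TATAAA, the CCAAT box, the GC box GGGCGG, the ETS core CCGGAA, the E-box CACGTG and the NRF1-type palindrome (GCGC, any 2 bases, GCGC). Dzip3 is at chr16:48994143-48994262 on the minus strand, Rnf123 at chr9:108079302-108079421 (minus), Rnf168 at chr16:32277341-32277460 (plus), Rnf214 at chr9:45906912-45907031 (minus), Rnf24 at chr2:131352893-131353012 (minus) and Rnf19b at chr4:129058024-129058143 (plus).
Dzip3: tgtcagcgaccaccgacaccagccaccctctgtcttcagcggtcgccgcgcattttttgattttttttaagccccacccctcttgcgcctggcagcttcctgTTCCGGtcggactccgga
Rnf123: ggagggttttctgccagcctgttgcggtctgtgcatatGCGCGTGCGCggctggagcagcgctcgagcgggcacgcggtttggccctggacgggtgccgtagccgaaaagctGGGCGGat
Rnf168: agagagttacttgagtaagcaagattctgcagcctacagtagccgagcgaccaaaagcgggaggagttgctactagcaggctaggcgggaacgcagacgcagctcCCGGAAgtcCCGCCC
Rnf214: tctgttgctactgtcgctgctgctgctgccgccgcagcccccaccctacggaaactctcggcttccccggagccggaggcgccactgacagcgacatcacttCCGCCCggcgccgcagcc
Rnf24: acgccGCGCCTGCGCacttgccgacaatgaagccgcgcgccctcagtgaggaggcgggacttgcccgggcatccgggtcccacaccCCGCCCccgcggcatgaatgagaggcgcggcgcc
Rnf19b: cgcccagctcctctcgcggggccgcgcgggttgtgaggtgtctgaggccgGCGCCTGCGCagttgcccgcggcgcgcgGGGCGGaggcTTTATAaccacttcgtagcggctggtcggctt
Dzip3 has an ETS core that ends 12 bases before its start and no GC box, while the other 5 each carry a GC box within the bases shown. Rnf168 shares an ETS core near the start, ending 9 bases before it. Over the full 250 bases before the start, 31 of the 56 tested Rnf genes with an entry (55.4%) held a GC box, against 58.9% of 11096 tested genes and 33.0% of all 27025 promoters in the table. The ETS core was in 14.3% of the Rnf promoters, 22.2% of those of tested genes and 12.3% of all promoters. The NRF1-type palindrome was in 17.9%, 10.5% and 5.1%, the E-box in 1.8%, 8.4% and 6.0%, the CCAAT box in 32.1%, 37.3% and 34.5%, and the TATA box in 10.7%, 6.5% and 13.0%. The 4 lower Rnf genes with an entry (Rnf123, Rnf168, Rnf214 and Rnf13) all held a GC box and so did 3 of the 5 higher ones. The ETS core was in 1 of these lower and 1 of these higher genes, and the CCAAT box likewise in 1 and 1. The NRF1-type palindrome was in 1 and 2, the TATA box in 0 and 2, and the E-box in 0 and 0. A motif match is a description of letters, and whether a factor binds there was not measured.

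Of the 81 Rnf genes, 72 passed the filter on low counts and were tested, and most of them hardly moved. Their median log2 fold change was 0.05, with 30 below 0 and 42 above 0, beside a median of 0.02 over all 17573 genes tested. The quartiles of the Rnf genes were -0.36 and 0.25, beside -0.32 and 0.24 for all tested genes. With edgeR's quasi-likelihood test on all 6 libraries and no pairing (the unpaired fit), 0 Rnf genes passed a Benjamini-Hochberg adjusted p of 0.05 in either direction, where 0.78% of all tested genes were lower and 0.0114% higher. Without adjustment, 7 lower and 6 higher Rnf genes had a p under 0.05 there, beside 8.21% and 2.68% of all tested genes. DESeq2 called 2 lower (Rnf123 and Rnf170) and 1 higher (Rnf139), where 641 of all 17573 tested genes were called, 579 of them lower. Libraries of the same replicate number deviated together, so the fit was repeated with the number as a block (the paired fit). It called 7 Rnf genes lower (9.72%) and 6 higher (8.33%), beside 7.9% lower and 4.96% higher among all tested genes. Log2 fold changes and SEs are those of the unpaired fit unless another is named. The paired p-values rest on the paired fit's own estimates and SEs, which are not printed beside them.

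**Figure D1:**
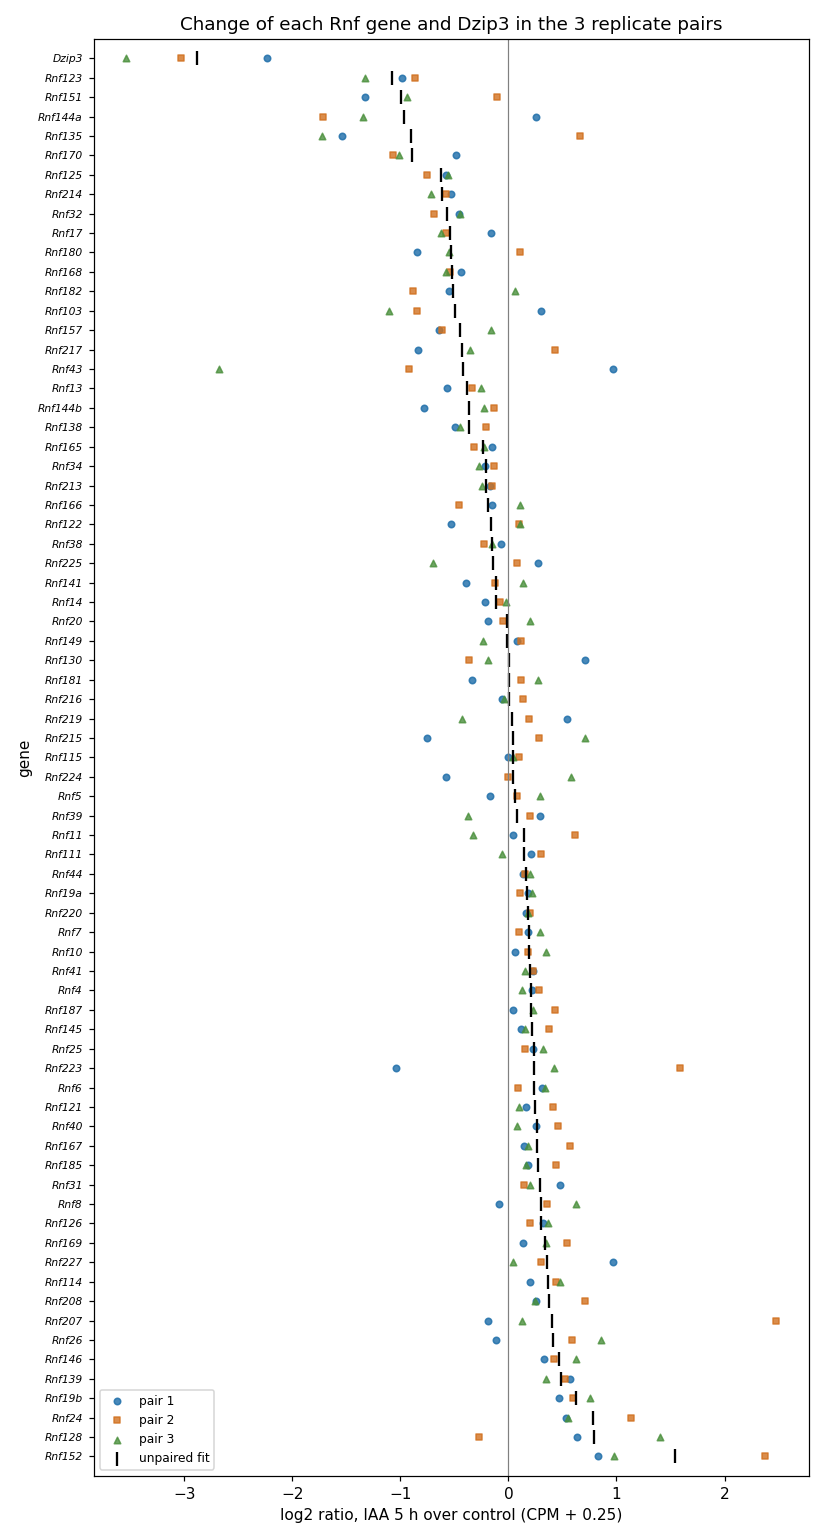
Log2 ratio of IAA 5 h over control (x axis) for the 72 tested Rnf genes and Dzip3 (y axis), with a marker for each replicate pair and a black tick for the unpaired fit. Dzip3 stands alone at the low end at -2.88, while the Rnf genes run between -1.08 for Rnf123 and 1.54 for Rnf152, and those with few counts scatter most.

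Direction within pairs and overlap of the groups were also counted, with no test of the shares. An Rnf gene was lower after IAA in all 3 pairs in 17 cases (23.6%, beside 24.1% of all tested genes) and higher in all 3 pairs in 26 cases (36.1%, beside 24.2%). The IAA and control libraries did not overlap at all for 9 lower Rnf genes (12.5%, beside 11.8%) and for 10 higher ones (13.9%, beside 6.94%). The 50 tested Rnf genes with at least 10 CPM in a group had log2 fold changes between -1.08 and 0.79, and 41 of them stayed within 0.5 of 0. The 22 below that level spread between -0.998 and 1.54, 0 of them were called in either edgeR fit, and in 15 the 3 pairs disagreed in direction.

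Among ligases that act on chromatin and DNA damage, the members of one signalling cascade moved in different directions. RNF8 and then RNF168 ubiquitinate chromatin around a double-strand break, and RNF169 binds the mark that RNF168 leaves. Rnf168 (chromosome 16, 32277461 to 32301442) was at 75.4, 86.8 and 74.9 CPM after IAA, against 102, 126 and 112 CPM in controls. The groups did not overlap (log2 fold change -0.52, SE 0.15, edgeR adjusted p = 0.193 unpaired and 0.00215 paired). Rnf169 (chromosome 7, 99920254 to 99981330) was at 172, 186 and 173 CPM after IAA, against 157, 128 and 136 CPM in controls. It was higher in every pair, by least in pair 1 (log2 fold change 0.34, SE 0.14, edgeR adjusted p = 0.415 unpaired and 0.0258 paired). Rnf8 averaged 48.9 ± 9.13 CPM after IAA and 39.7 ± 7.003 CPM in controls (SD, n = 3 each), and its pairs disagreed in direction.

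Rnf138 encodes a ligase recruited to broken DNA ends, where it acts in their resection. It was at 143, 233 and 143 CPM after IAA and at 201, 270 and 195 CPM in controls, so replicate 2 stood high in both groups and the groups overlapped (log2 fold change -0.36, SE 0.23, edgeR adjusted p = 0.625 unpaired and 0.00866 paired). The other chromatin members were called in neither fit. Rnf4, a ligase that recognises SUMO chains, had the most counts of any member and was at 644, 632 and 608 CPM after IAA, against 552, 520 and 558 CPM in controls. Its groups did not overlap, with a log2 fold change of 0.21 (SE 0.12, edgeR adjusted p = 0.603 unpaired and 0.0621 paired). Rnf20 and Rnf40, whose products form the ligase for histone H2B, had log2 fold changes of -0.02 and 0.26, and Rnf111, which encodes the TGF-beta signalling ligase Arkadia, had 0.15. Of the 8 chromatin members, 2 fell and 1 rose in the paired fit (25% and 12.5%, beside 7.9% and 4.96% of all tested genes). Their median log2 fold change was 0.18, beside 0.02 over all tested genes.

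**Figure D2:**
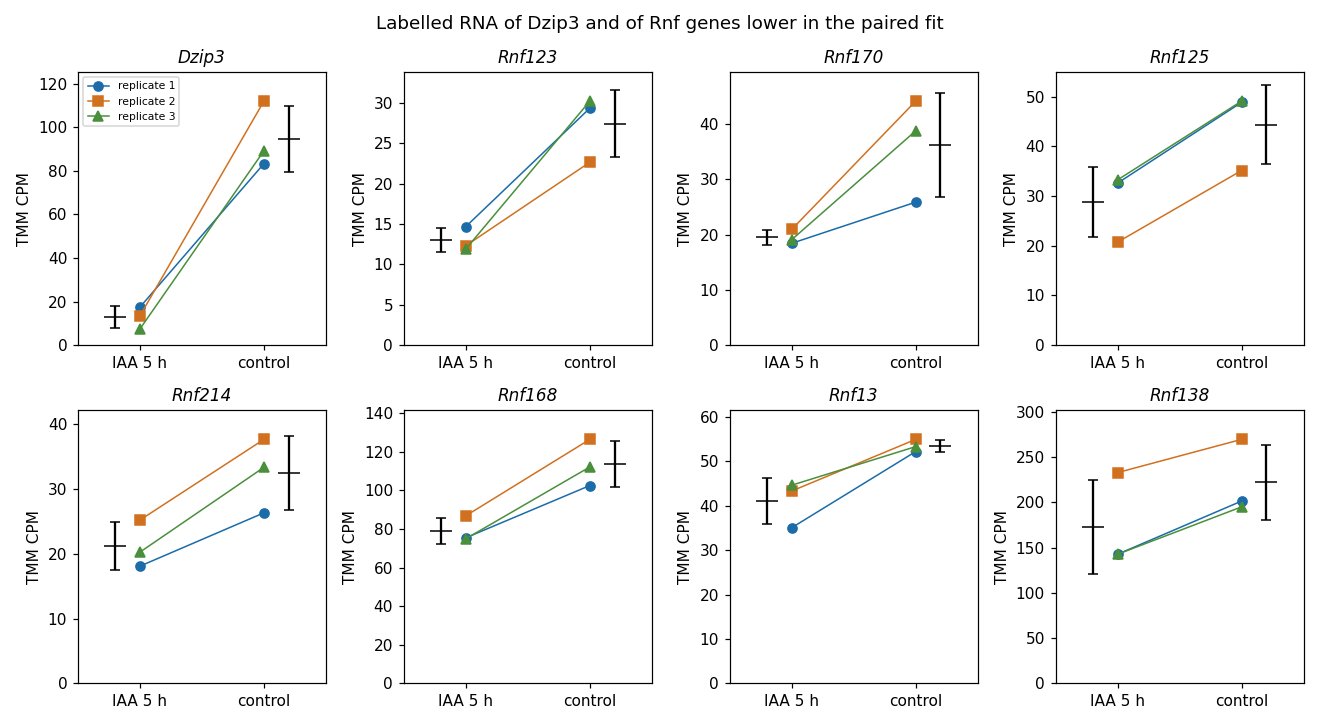
TMM-normalised CPM (y axis, from 0) of Dzip3 and the 7 Rnf genes lower in the paired fit, in each IAA 5 h library (left) and control library (right). Lines join libraries of one replicate number, and black bars give the mean and SD of 3 libraries. Groups overlap only for Rnf138, and Dzip3 shows the steepest lines, at 7.45 to 17.5 CPM after IAA and 83.3 to 112 CPM in controls.

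The lowest Rnf gene belonged to the cytosolic, ribosome and cullin group. Rnf123 encodes the catalytic subunit of the KPC complex, which ubiquitinates the CDK inhibitor p27. It lies on chromosome 9 at 108051672 to 108080352 and was at 14.7, 12.3 and 11.9 CPM after IAA, against 29.3, 22.7 and 30.2 CPM in controls. All IAA libraries were below all controls, a 2.11-fold difference (log2 fold change -1.08, SE 0.21, edgeR adjusted p = 0.0639 unpaired and 0.00135 paired). Gmppb and Amigo3, which overlap Rnf123 on the genome, had log2 fold changes of 0.01 and 0.27 and were not called.

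Rnf125 encodes a membrane-bound ligase that acts on the RNA sensor RIG-I. It was at 32.6, 20.7 and 33.2 CPM after IAA and at 48.8, 35.1 and 49.1 CPM in controls. Replicate 2 was low in both groups, and the groups still did not overlap (log2 fold change -0.62, SE 0.24, edgeR adjusted p = 0.367 unpaired and 0.00569 paired). Rnf146 encodes a ligase that reads poly(ADP-ribose) and promotes the breakdown of axin in WNT signalling. It was at 64.7, 72.3 and 76.0 CPM after IAA, against 51.4, 53.8 and 49.2 CPM in controls, with no overlap (log2 fold change 0.46, SE 0.15, edgeR adjusted p = 0.259 unpaired and 0.0120 paired). Echdc1, which overlaps Rnf146, had a log2 fold change of -0.17 and was not called.

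Rnf114, whose product is a cytosolic ligase, was at 184, 167 and 196 CPM after IAA and at 161, 123 and 141 CPM in controls. The groups did not overlap (log2 fold change 0.37, SE 0.15, edgeR adjusted p = 0.412 unpaired and 0.0121 paired). Spata2, whose interval overlaps that of Rnf114, averaged 80.8 CPM after IAA and 63.9 CPM in controls and was also higher in the paired fit (adjusted p = 0.0365). Strand is not stated for these counts, so reads of overlapping genes could not be assigned with certainty. The remaining 14 genes of this group were called in neither fit. They include Rnf10 and Rnf25, ligases of stalled or colliding ribosomes, at log2 fold changes of 0.19 and 0.23, and Rnf7, the RING subunit of some cullin ligases, at 0.19. Rnf34 had -0.21 and Rnf44 had 0.16, each with no overlap between groups. Of the 18 members, 11 were higher in all 3 pairs (61.1%, beside 24.2% of all tested genes) and 4 were lower in all 3 (22.2%, beside 24.1%). The paired fit called 2 lower and 2 higher (11.1% each, beside 7.9% and 4.96%).

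In the ER and organelle membrane group, Rnf170 and Rnf139 moved apart. RNF170 mediates the degradation of activated inositol trisphosphate receptors at the ER. Rnf170 (chromosome 8, 26119368 to 26143875) was at 18.4, 20.9 and 19.1 CPM after IAA, against 25.9, 44.2 and 38.8 CPM in controls. The IAA libraries lay close together and below all controls, and control replicate 1 was the nearest (log2 fold change -0.89, SE 0.23, edgeR adjusted p = 0.143 unpaired and 0.00347 paired). Hook3, which overlaps Rnf170, averaged 129 CPM after IAA and 116 CPM in controls and was not called.

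RNF139, also known as TRC8, is an ER ligase linked to sterol control. Rnf139 (chromosome 15, 58889229 to 58902390) was at 131, 141 and 116 CPM after IAA and at 88.1, 97.9 and 91.2 CPM in controls, with no overlap between the groups (log2 fold change 0.49, SE 0.14, edgeR adjusted p = 0.203 unpaired and 0.00321 paired). Tatdn1, which overlaps it, had a log2 fold change of the opposite sign, -0.42. It was not called, though just outside the paired threshold (edgeR adjusted p = 0.468 unpaired and 0.0557 paired). Rnf145, another sterol-responsive ER ligase gene, was at 151, 170 and 147 CPM after IAA and 139, 131 and 132 CPM in controls. Its groups did not overlap, and neither fit called it (log2 fold change 0.22, edgeR adjusted p = 0.606 unpaired and 0.106 paired). Rnf5 and Rnf185, related genes for ligases of ER-associated degradation, had log2 fold changes of 0.07 and 0.28, and neither was called. Of the 11 tested members, 5 were higher in all 3 pairs (45.5%, beside 24.2% of all tested genes) and 1 was lower in all 3 (9.09%, beside 24.1%). The paired fit called 1 lower and 1 higher (9.09% each, beside 7.9% and 4.96%).

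The highest log2 fold change of any tested member was that of Rnf152, a gene for a lysosomal ligase, at 1.54. It rested on 1.34, 1.05 and 1.62 CPM after IAA and 0.647, 0 and 0.704 CPM in controls, and it was called in neither fit (edgeR adjusted p = 0.658 unpaired and 0.254 paired).

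**Figure D3:**
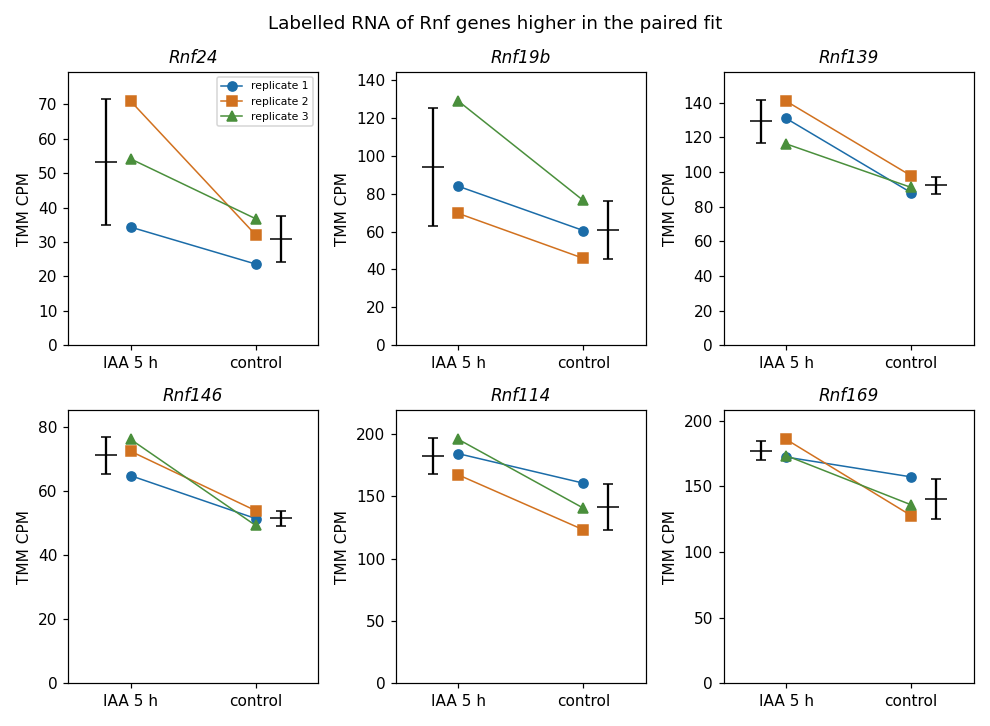
TMM-normalised CPM (y axis, from 0) of the 6 Rnf genes higher in the paired fit, in each IAA 5 h library (left) and control library (right), with lines joining libraries of one replicate number and black bars for mean and SD of 3 libraries. Every line is higher on the left, and the groups overlap for Rnf24 and Rnf19b, whose replicates differ most.

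Among 8 tested RBR ligase genes, the unpaired fit called 0, and the paired fit called 0 lower and 1 higher (12.5%, beside 4.96% of all tested genes). Rnf19b encodes a membrane RBR ligase known from natural killer cells. It was at 83.9, 69.6 and 129 CPM after IAA and at 60.5, 45.9 and 76.4 CPM in controls. Replicate 3 was high and replicate 2 low in both groups, so the groups overlapped although every pair rose (log2 fold change 0.63, SE 0.26, edgeR adjusted p = 0.427 unpaired and 0.00153 paired). Its relative Rnf19a averaged 64.7 ± 7.53 CPM after IAA and 57.5 ± 6.90 CPM in controls (SD, n = 3 each) and was not called. Rnf144a, an RBR ligase gene linked to DNA-PK turnover, was at 7.99, 4.70 and 3.45 CPM after IAA, against 6.66, 16.0 and 9.15 CPM in controls. Pair 1 went against pairs 2 and 3, and neither fit called it (log2 fold change -0.97, edgeR adjusted p = 0.458 unpaired and 0.0976 paired). Without pair 1, the pair that disagreed, the paired fit did call it (log2 fold change -1.60, edgeR adjusted p = 0.00617). Without pair 2 or pair 3 it did not (log2 fold change -0.53 and -0.76, edgeR adjusted p = 0.492 and 0.391). Rnf31, the catalytic subunit of the linear ubiquitin chain complex, and Rnf216 had log2 fold changes of 0.29 and 0.01.

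Of the genes with a protease-associated domain, 7 of 10 were tested. In the paired fit 1 was lower, Rnf13 (14.3%, beside 7.9% of all tested genes), and 0 were higher. RNF13 is a ligase of endosomes and lysosomes. Rnf13 was at 35.0, 43.3 and 44.6 CPM after IAA, against 52.2, 54.9 and 53.3 CPM in controls, and the groups did not overlap (log2 fold change -0.38, SE 0.16, edgeR adjusted p = 0.431 unpaired and 0.0426 paired). Its paired call was lost without pair 1, pair 2 or pair 3. Rnf43, which encodes a ligase that removes WNT receptors, was at 1.87, 0.274 and 0 CPM after IAA and 0.837, 0.740 and 1.35 CPM in controls, levels that set no direction. Rnf128, known from T cell anergy, averaged 3.36 ± 1.79 CPM after IAA and 1.93 ± 0.274 CPM in controls (SD, n = 3 each).

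Outside these groups, among 19 tested genes, the paired fit called Rnf24 higher and Rnf214 lower (5.26% each, beside 4.96% and 7.9% of all tested genes). Rnf24 encodes a membrane ligase of the Golgi. Rnf24 (chromosome 2, 131298488 to 131352892) was at 34.3, 71.0 and 54.2 CPM after IAA, against 23.6, 32.1 and 36.8 CPM in controls. Only IAA replicate 1 fell within reach of the controls, and pair 2 showed the widest gap (log2 fold change 0.79, SE 0.28, edgeR adjusted p = 0.330 unpaired and 0.00436 paired). Pank2, which overlaps Rnf24, had a log2 fold change of -0.26 and was not called.

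Rnf214 was at 18.1, 25.2 and 20.2 CPM after IAA, against 26.3, 37.6 and 33.3 CPM in controls, with no overlap (log2 fold change -0.61, SE 0.22, edgeR adjusted p = 0.325 unpaired and 0.0129 paired). Bace1, which overlaps it, averaged 60.4 CPM after IAA and 84.7 CPM in controls and was lower in the paired fit too (adjusted p = 0.0132), whereas Pcsk7, also overlapping, was not called. Rnf32 and Rnf165 also had no overlap between groups, at 5.09 ± 0.449 against 7.55 ± 1.45 CPM and at 60.7 ± 4.43 against 71.3 ± 1.57 CPM in IAA and control libraries (SD, n = 3 each), and neither fit called them. Rnf151, described in mouse spermatids, was at 1.56, 1.41 and 2.17 CPM after IAA and 4.30, 1.54 and 4.39 CPM in controls and was not called. The germ line gene Rnf17, which encodes a Tudor-domain protein of male germ cells, was at 12.9, 25.1 and 36.5 CPM after IAA and 14.5, 37.6 and 56.3 CPM in controls. The spread between replicates exceeded the difference, and the paired fit placed it just outside its threshold (log2 fold change -0.54, edgeR adjusted p = 0.761 unpaired and 0.0510 paired).

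**Figure D4:**
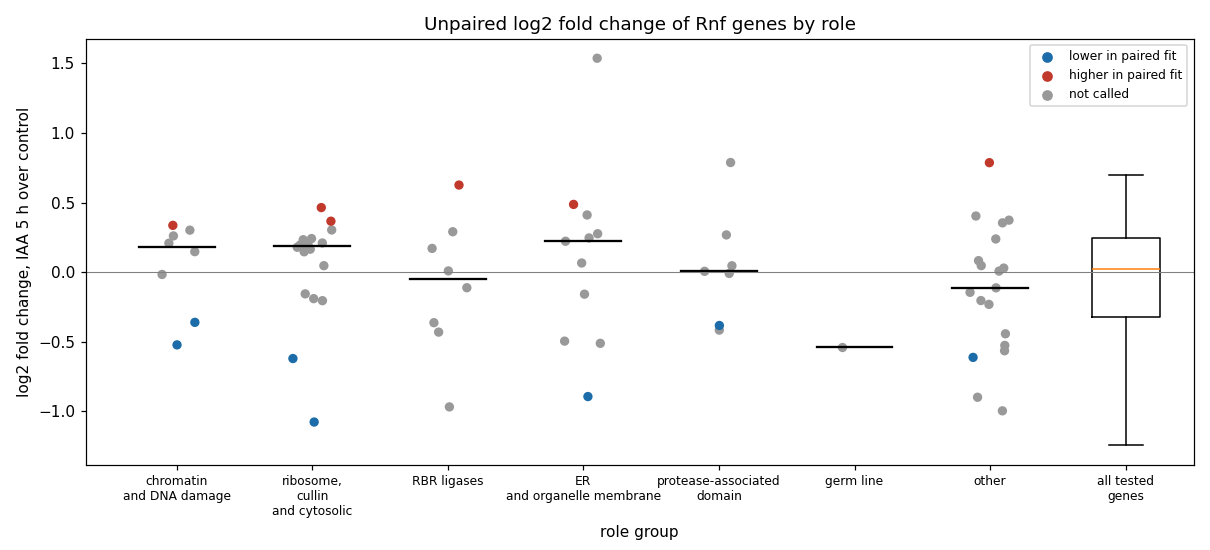
Unpaired log2 fold change (y axis) of each tested Rnf gene by role group (x axis), coloured by its call in the paired fit, with a black line at each group's median. The box at the right gives the quartiles of all 17573 tested genes, with whiskers at the 5th and 95th percentiles. Lower and higher calls stand in the same groups for chromatin, cytosolic, ER and other ligases.

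The 9 Rnf genes that did not reach the filter had few or no counts. Rnf133, Rnf148 and Rnf186 were at 0 in all 6 libraries, which allows up to 0.209 CPM in the shallowest library and 0.116 CPM in the deepest (3 counts, covering counting error only). Rnf112, Rnf150, Rnf183, Rnf212, Rnf212b and Rnf222 had at most 26 counts in any library.

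Genomic length varied widely among the members, and those with a paired call lay between 13.2 kb (Rnf139) and 99.4 kb (Rnf13). The numbers of Rnf genes in each length class are small, and their shares were not tested. Of 16 Rnf genes under 10 kb, 0 had a paired call, beside 2.41% lower and 5.89% higher for all tested genes of that length. Of 24 Rnf genes of 10 to 30 kb, 4 were lower and 4 higher (16.7% each, beside 9.27% and 7.30%). Of 21 Rnf genes of 30 to 100 kb, 3 were lower and 2 higher (14.3% and 9.52%, beside 13.9% and 4.48%). Of 11 Rnf genes of 100 kb or more, 0 were called (beside 12.6% lower and 1.32% higher), although their median log2 fold change was -0.23, against 0.14 for those under 10 kb. Length and log2 fold change had a Spearman rho of -0.29 across the 72 tested Rnf genes and of -0.24 across 15362 tested genes with a length. These genes share the same 6 libraries and are not independent replicates.

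**Figure D5:**
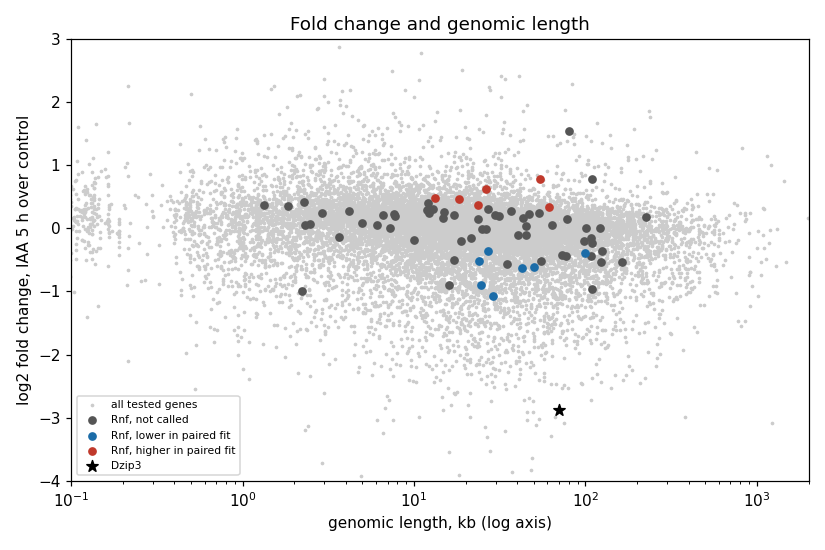
Log2 fold change of IAA 5 h over control in the unpaired fit (y axis) against genomic length in kb (x axis, log scale) for all tested genes in grey, Rnf genes by their call in the paired fit, and Dzip3 as a star, with 211 genes outside the plotted ranges. Called Rnf genes lie between 13.2 kb (Rnf139) and 99.4 kb (Rnf13), and Dzip3, at 69.9 kb, lies far below them.

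Other genes of ubiquitin transfer were counted in the same way, from lists of E1 and E2 enzymes, of RING ligases with other names, and of genes for H2A ubiquitination and partners of DZIP3. The unpaired fit called 0 in each list, beside 0.78% lower and 0.0114% higher among all tested genes. At p under 0.05 before adjustment, 1 E1 or E2 gene was lower, 1 RING ligase lower and 2 higher, and 1 H2A gene higher. The lists held 39, 47 and 17 tested genes, and 8.21% of all tested genes were lower and 2.68% higher at that p. DESeq2 called 1 E1 or E2 gene and 0 in the other lists, where it called 641 of all tested genes. In the paired fit, 4 of 39 tested E1 and E2 genes were lower and 3 higher (10.3% and 7.69%, beside 7.9% and 4.96% of all tested genes). Ube2v2, a cofactor that lets the E2 UBE2N build the chains used by RNF8, was at 33.2, 53.9 and 39.4 CPM after IAA, against 64.6, 92.4 and 75.5 CPM in controls. The groups did not overlap (log2 fold change -0.88, edgeR adjusted p = 0.134 unpaired and 1.9e-04 paired). Nae1, a subunit of the E1 for the cullin modifier NEDD8, averaged 59.9 CPM after IAA and 84.3 CPM in controls. Its groups overlapped (edgeR adjusted p = 0.482 unpaired and 0.0126 paired). Ube2s, the chain-elongating E2 of the anaphase-promoting complex, averaged 200.1 CPM after IAA and 149 CPM in controls. The groups of Ube2s overlapped too (edgeR adjusted p = 0.468 unpaired and 0.00436 paired).

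Among 47 other RING ligase genes, 3 were lower and 6 higher in the paired fit (6.38% and 12.8%, beside 7.9% and 4.96% of all tested genes). Xiap, an inhibitor of caspases, was lower and averaged 101 CPM after IAA and 146 CPM in controls (edgeR adjusted p = 0.00236 paired), and so was the RBR ligase gene Arih1, at 189 and 235 CPM in IAA and control libraries (edgeR adjusted p = 0.0212 paired). The translesion synthesis ligase gene Rad18 averaged 66.2 ± 34.6 and 83.7 ± 38.4 CPM in IAA and control libraries (SD, n = 3 each). Its groups overlapped (edgeR adjusted p = 0.819 unpaired and 0.0307 paired). Of the 6 higher genes, Znrf3, whose product removes WNT receptors, averaged 91.0 CPM after IAA and 71.4 CPM in controls (edgeR adjusted p = 0.0220 paired). Syvn1, the ligase of ER-associated degradation known as HRD1, averaged 87.2 CPM after IAA and 68.7 CPM in controls (edgeR adjusted p = 0.0276 paired), and its interval overlaps that of Mrpl49. Znrf1, Topors and Arih2 were also higher in the paired fit, with unpaired log2 fold changes of 0.32, 0.27 and 0.25, and the groups overlapped for Znrf1 and Arih2. Of 17 genes for H2A ubiquitination and DZIP3 partners, 0 were lower in the paired fit (beside 7.9% of all tested genes). Higher there were 2 genes (11.8%, beside 4.96%). They were Rybp, a subunit of Polycomb complexes, at 548 CPM after IAA and 422 CPM in controls, and the arginine methyltransferase gene Carm1, at 125 and 99.8 CPM (edgeR adjusted p = 0.00634 and 0.0190, paired). For both Rybp and Carm1 the groups overlapped (edgeR adjusted p = 0.739 and 0.614, unpaired). Carm1 overlaps Yipf2 on the genome.

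With 3 libraries a group, the paired calls are small, since 1 of the 13 called Rnf genes, Rnf123, differed at least 2-fold. Of the 13, DESeq2 without pairing also called Rnf123, Rnf170 and Rnf139 and no other.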

How the data were processed

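Labelled RNA was measured in 3 IAA libraries and 3 control libraries. The authors deposited 1 table of estimated counts of reads per gene, already whole numbers, and the build mm10 with HISAT2 (2.2.1), DESeq2 (1.42.0) and StringTie (2.2.1) are named, without roles, per the submitters' processing notes. For the counter, strand, spike-in and pulse length no source used here gives a value. How reads over several genes were shared out is likewise not stated.

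Counts were fitted in R 4.3.3 with edgeR 4.0.16 (filterByExpr, TMM, robust quasi-likelihood test, IAA over control), which kept 17573 genes. p-values were adjusted over all of them with the Benjamini-Hochberg method, and each SE is the unpaired log2 fold change over the root of the unpaired F. DESeq2 1.42.0, median-ratio size factors, no filter and omission of each library or pair were alternatives. Same-numbered libraries' deviations from their group means correlated across genes at 0.268, 0.387 and 0.321, and differently numbered ones between -0.265 and -0.025, so the replicate number from the titles was taken to pair them. The design text calls the replicates independent without saying that they were separate cultures, so the spread behind each p-value may be technical.

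Coordinates and overlaps came from a RefSeq table of GRCm38.p6, which matched all 82 members, and promoters from RefSeq on that build for 64. CPM is not per length, so levels of different genes were not compared. Members and lists were chosen with earlier results of these data known. Genes were named if called in either edgeR fit, if among the 3 lowest or highest fold changes or the 3 highest levels, plus up to 3 called genes of each other list. One called gene of the other RING ligase list is not reported here. Others are given as examples of a role group, chosen after their values were seen.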

Additional observations from a re-analysis of the deposited data

How the results depend on the processing

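The numbers of lower and higher Rnf genes, 0 and 0 in the unpaired edgeR fit, were 7 and 6 with the replicate number as a block and 2 and 1 with DESeq2. They stayed at 0 with median-ratio size factors, with no filter on low counts and without any single library. The runs without a single library called 0 or 1 of all tested genes, against 139 with every library. A count of 0 Rnf genes in those runs therefore cannot show that the result is stable. In the paired fit without one replicate number they were 5 to 7 and 3 to 7. The 13 called Rnf genes had the same direction under every alternative run, and 11, 11 and 8 of them stayed called without pairs 1, 2 and 3. Rnf13 and Rnf138 were lost without pair 1, Rnf13 and Rnf169 without pair 2, and Rnf13, Rnf214, Rnf169, Rnf114 and Rnf146 without pair 3. The libraries left are fewer there, so the tests have less power. The median log2 fold change of the Rnf genes, 0.046, was 0.014 to 0.146 without single libraries and -0.029 to 0.136 without single pairs (0.136, -0.029 and 0.119 without pairs 1, 2 and 3). That of Dzip3 moved by less than the SD of its pairs. The E1 and E2, other RING and H2A lists had 7, 9 and 2 calls with the block, 2 to 4, 1 to 3 and 1 without one pair, and DESeq2 called 1 E1 or E2 gene. All calls numbered 139 unpaired, 2259 with the block and 641 with DESeq2. Genes under 10 CPM are limited by depth.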
